A study of Homo sapiens with 8 samples.

Results

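The collagen genes followed here in BEAS-2B cells were COL1A1, COL1A2, COL3A1, COL5A1 and COL5A2, whose chains form fibrils, COL4A1 and COL4A2 of the basement membrane network, COL6A1 and COL6A2 of beaded microfilaments, and COL12A1, which binds to fibrils. They were chosen by symbol and are 10 of the 50006 genes in the count files. The 8 RNA-seq libraries fall into 4 groups of 2, labelled as biological replicates 1 and 2. The αC libraries come from cells given the αC domain of fibrinogen, the M1-FCP libraries from cells given Der m 1-derived FCPs, and the FBG libraries from cells given fibrinogen, each at 4 ng/µl for 4 h. The Mock libraries come from cells given PBS. All 4 groups carry the genotype label WT. Der m 1 is a cysteine protease of a house dust mite, Dermatophagoides microceras, and is an allergen. The labels do not spell out FCP and do not say how the αC domain was prepared. BEAS-2B is a line made from bronchial epithelium with viral transforming genes, grown here without serum in LHC-9 medium. The labels do not say whether the replicates came from separate cultures, so the p-values cover only how far these libraries differ, and that may be technical spread.

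Collagens are secreted proteins in which 3 chains wind into a triple helix. Type I collagen, built from the COL1A1 and COL1A2 chains, is the main fibre of connective tissue, type III often lies beside it, and type V sits at the core of the fibrils and sets their width. Type IV collagen is the sheet that carries airway epithelium, type VI links cells to the matrix around them, and type XII decorates fibril surfaces. In the airway wall most fibrillar collagen is made by fibroblasts, while epithelial cells contribute to the basement membrane.

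The promoter windows below show the start of 3 of the genes whose levels are described next, because COL4A1 shares its promoter with COL4A2, COL5A1 fell furthest, and COL12A1 differed most clearly between αC and M1-FCP. Windows from RefSeq (GRCh38.p14) were found for 5 of the 10 genes (COL4A1, COL4A2, COL5A1, COL6A2 and COL12A1), each of 300 bases from 250 before to 50 after the start of the gene. Capitals mark 3 short motifs on either strand, namely the letters of CCAAT, those of GGGCGG and also those of TATAAA, each also as its reverse complement, and the marked runs do not overlap.
COL4A1, minus strand of chr13:110307108-110307407: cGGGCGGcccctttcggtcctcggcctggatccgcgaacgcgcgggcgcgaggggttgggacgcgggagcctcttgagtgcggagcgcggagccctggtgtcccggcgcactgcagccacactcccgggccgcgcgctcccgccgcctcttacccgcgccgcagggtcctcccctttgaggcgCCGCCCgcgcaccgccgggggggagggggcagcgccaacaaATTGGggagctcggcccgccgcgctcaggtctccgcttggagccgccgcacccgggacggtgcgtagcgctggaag
COL5A1, plus strand of chr9:134641553-134641852: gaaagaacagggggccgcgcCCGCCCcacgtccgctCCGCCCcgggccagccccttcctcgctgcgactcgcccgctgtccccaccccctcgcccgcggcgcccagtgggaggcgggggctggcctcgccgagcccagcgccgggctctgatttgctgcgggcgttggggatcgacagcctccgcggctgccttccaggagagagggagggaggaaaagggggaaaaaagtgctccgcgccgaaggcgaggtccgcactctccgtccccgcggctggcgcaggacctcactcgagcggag
COL12A1, minus strand of chr6:75206004-75206303: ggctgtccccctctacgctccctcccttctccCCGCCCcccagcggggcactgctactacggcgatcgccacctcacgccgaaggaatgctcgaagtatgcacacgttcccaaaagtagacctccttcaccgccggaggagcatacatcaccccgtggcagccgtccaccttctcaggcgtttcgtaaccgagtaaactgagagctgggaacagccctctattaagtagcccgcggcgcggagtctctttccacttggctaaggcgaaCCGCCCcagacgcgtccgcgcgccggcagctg

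The COL4A1 and COL4A2 genes lie head to head on chromosome 13, with 126 bases between them, and their windows share 226 bases. The single CCAAT of this pair lies in the shared bases and stands on the opposite strand when read from the COL4A1 side. CCAAT was in 34.6% of all 35116 windows, GGGCGG in 45% and TATAAA in 11.5%. GGGCGG occurred in all 5 windows found, and TATAAA only in that of COL6A2. These matches describe letters in a window and were not tested against the expression values.

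Depth ran from 15137196 to 22258791 counts per library, with the FBG and Mock libraries shallower than the αC and M1-FCP libraries. The labelled epithelial identity was checked with 12 epithelial markers, whose summed level was 5687 to 5775 CPM (counts scaled to library size) in αC, 5453 to 5539 in M1-FCP, 1133 to 1153 in FBG and 1184 to 1189 in Mock. KRT5 averaged 1704 CPM in αC and 1669 CPM in M1-FCP, against 7.13 CPM in FBG and 1.84 CPM in Mock, and GRHL2 had no count in Mock. KRT8 was present in every group, at 734.9, 784.2, 420.4 and 455.1 CPM in αC, M1-FCP, FBG and Mock. CDH1 averaged 270.8, 263.7, 8.82 and 4.08 CPM and TP63 115.6, 83.7, 0.132 and 0.0604 CPM in the same order. KRT17 averaged 344.2 CPM in FBG and 315.2 in Mock, and KRT18 351.3 and 404.4. The FBG and Mock libraries therefore lacked or nearly lacked several defining epithelial markers, which goes against their cell type label, but they kept KRT8, KRT17 and KRT18, which go with it. The treatments lasted 4 h, and the labels do not say whether all groups were started from the same culture. A difference in the starting cells or the source of a library cannot be told apart from a treatment, so rose and fell below describe differences between libraries. The 7 smooth muscle and pericyte markers summed to 28.9 to 29.4 CPM in αC and 32.2 to 32.6 in M1-FCP. They summed to 124.1 to 124.7 CPM in FBG and 151.4 to 158.0 in Mock. Against Mock, 3 of the 5 tested fell and 1 rose in αC and in M1-FCP, and 2 fell in FBG. MYH11, a smooth muscle marker of this list, was at 0 in all groups. The 6 endothelial markers summed to at most 4.63 CPM in any library. The 3 tested rose in αC and in M1-FCP against Mock, and 1 fell in FBG. The 12 fibroblast and mesenchymal markers summed to 449.3 to 458.2 CPM in αC, 479.2 to 479.5 in M1-FCP, 1066 to 1073 in FBG and 1217 to 1219 in Mock. Of the 11 tested, 9 fell and 1 rose in αC, 8 fell and 1 rose in M1-FCP, and 6 fell and 1 rose in FBG, each against Mock. All 12 epithelial markers rose in αC and in M1-FCP, and in FBG 6 rose and 3 fell. Of all tested genes, 38.0% rose and 36.7% fell in αC, 37.3% and 36.1% in M1-FCP, and 24.2% and 26.3% in FBG. Those shares are the background of every marker count here. These marker levels divide the libraries in the same way as several collagen genes below, and their part in the collagen results was not tested. In bulk RNA, fewer cells of a type and less RNA per cell cannot be told apart.

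Type I collagen transcripts were far lower in αC and M1-FCP than in FBG and Mock, and FBG lay between. COL1A1 (chromosome 17, 50184101 to 50201631, minus strand), the α1 chain, had 185.7 and 183.1 CPM scaled by TMM (trimmed mean of M-values) in αC, 172.7 and 172.8 in M1-FCP, 1087 and 1091 in FBG, and 2143 and 2167 in Mock. The Mock libraries were the highest, the FBG libraries intermediate, and no 2 groups overlapped. COL1A1 fell by 3.55 ± 0.0165 on the log2 scale in αC against Mock (edgeR adjusted p = 2.72e-33), which is 11.7-fold lower. It fell by 3.64 ± 0.0172 in M1-FCP (12.5-fold lower, edgeR adjusted p = 2.12e-33) and fell by 0.99 ± 0.0138 in FBG (1.98-fold lower, edgeR adjusted p = 3.59e-23). Each error given after ± is the larger of the fitted standard error and the counting error, with 2 libraries a group. The p-values rest on the fitted error alone. Against Mock it was below the counting error for 5 of the 9 tested genes in αC, 5 in M1-FCP and 2 in FBG. Those p-values are smaller than the counting error would allow. The FBG level was itself well above αC, since COL1A1 was lower by -2.56 ± 0.0174 in αC against FBG (edgeR adjusted p = 2.55e-30).

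COL1A2 (chromosome 7, 94394895 to 94431227, plus strand), the partner chain, had 3.59 and 3.51 TMM-scaled CPM in αC, 3.71 and 3.32 in M1-FCP, 17.6 and 19.7 in FBG, and 38.5 and 39.3 in Mock. It had the same order of groups as COL1A1, apart from αC and M1-FCP, which overlapped. The gene fell in all 3, with log2 fold changes of -3.45 ± 0.119 in αC, -3.47 ± 0.121 in M1-FCP and -1.06 ± 0.0909 in FBG, each against Mock (edgeR adjusted p = 1.42e-18, 1.53e-18 and 1.22e-09). Per length, COL1A1 transcripts outnumbered those of COL1A2 by 44.3 and 44.7 times in αC, 39.9 and 44.7 in M1-FCP, 53.0 and 47.5 in FBG, and 47.8 and 47.3 in Mock. One FBG ratio lay above the Mock ratios and the other between them, and the αC and M1-FCP ratios lay below both Mock ratios.

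**Figure D1:**
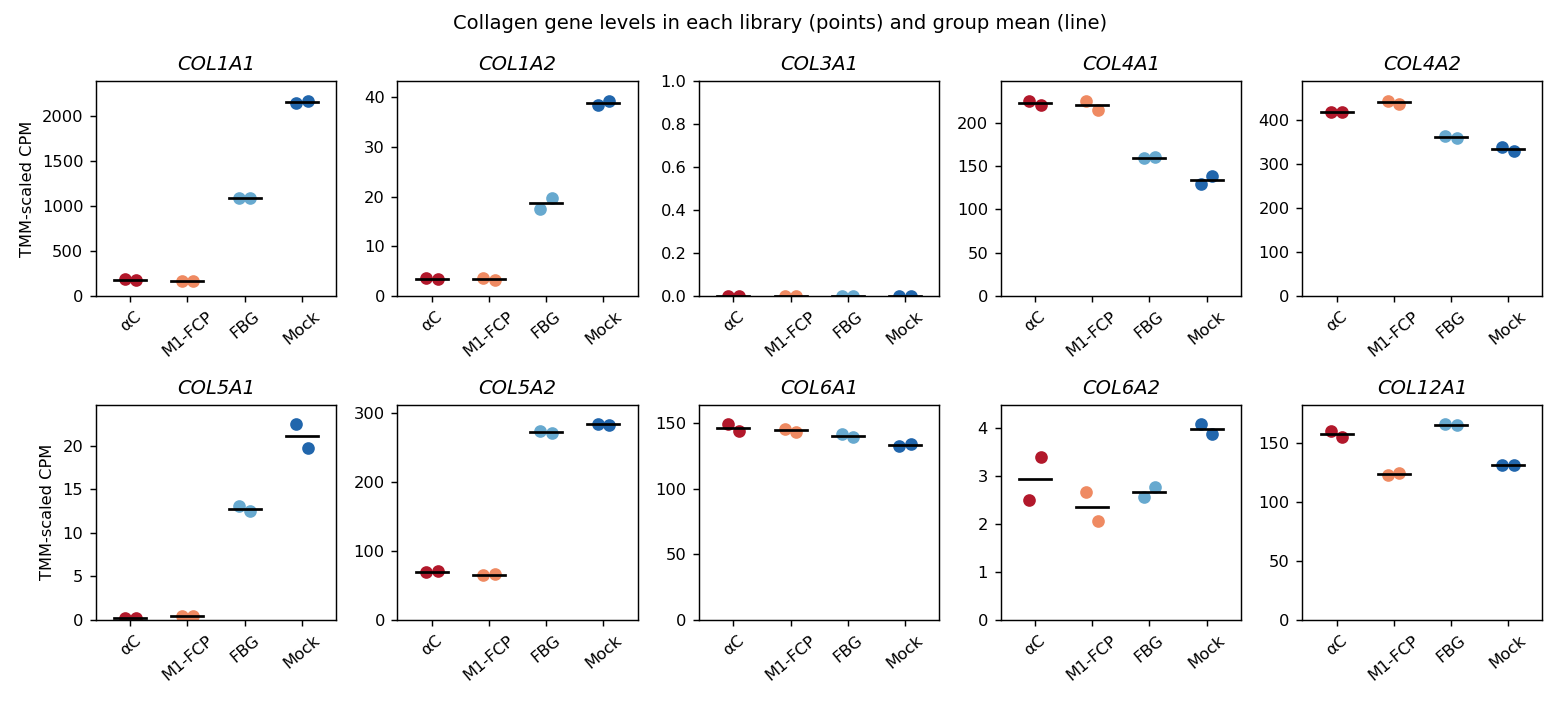
TMM-scaled CPM (vertical axis, linear from 0 and different in each panel) of the 10 collagen genes in the αC, M1-FCP, FBG and Mock libraries; each point is 1 library and the line is the mean of 2. COL1A1, COL1A2, COL5A1 and COL5A2 sit low in αC and M1-FCP, COL4A1 and COL4A2 sit high there, and COL3A1 is at 0 in all 8 libraries.

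Type V collagen showed the steepest fall of the family through COL5A1, and a smaller one through COL5A2. COL5A1 (chromosome 9, 134641803 to 134844843, plus strand), the α1 chain that nucleates fibrils, had 6 and 5 counts in αC, 11 and 11 in M1-FCP, 195 and 185 in FBG, and 338 and 297 in Mock. These are 0.254 and 0.211 TMM-scaled CPM in αC, 0.48 in both M1-FCP libraries, 13.1 and 12.5 in FBG, and 22.5 and 19.8 in Mock. The gene was nearly undetected in αC and M1-FCP, plainly present in FBG and highest in Mock, with no overlap between groups. COL5A1 fell by 6.47 ± 0.439 in αC (edgeR adjusted p = 1.38e-18), fell by 5.44 ± 0.313 in M1-FCP (6.59e-18) and fell by 0.72 ± 0.13 in FBG (6.07e-05), each against Mock. The fitted errors behind the αC and M1-FCP p-values were only 0.191 and 0.174, below the counting errors, so these p-values overstate the certainty. With so few counts, the ratio of summed counts per depth is a safer size: COL5A1 was 77.6-fold lower in αC (95% exact counting interval 43.1 to 156.2) and 37.8-fold lower in M1-FCP (24.8 to 60.8). Only 15 of the 16307 tested genes had a larger fitted fall in αC against Mock. Between αC and M1-FCP the counts were 11 and 22 in all, and the log2 difference of -1.03 (95% interval -2.07 to 0.02, edgeR adjusted p = 0.23) did not pass the threshold.

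COL5A2 (chromosome 2, 189031898 to 189441111, minus strand) had 69.2 and 70.5 TMM-scaled CPM in αC, 64.6 and 66.9 in M1-FCP, 273.6 and 270.3 in FBG, and 283.5 and 283.0 in Mock. The FBG and Mock libraries lay close together and far above the others. COL5A2 fell by 2.02 ± 0.0296 in αC and fell by 2.11 ± 0.0306 in M1-FCP (edgeR adjusted p = 8.8e-25 and 5.71e-25). In FBG against Mock it had a log2 fold change of -0.06 ± 0.0246 (95% interval -0.11 to -0.01), with an edgeR adjusted p of 0.0526, and the sign turned to 0.06 with library size as the only scaling. It was called lower with RLE factors (log2 -0.088, edgeR adjusted p = 0.0049), with no filter (-0.067, 0.0333) and with DESeq2 (-0.096, adjusted p = 0.0265). Per length, COL5A2 exceeded COL5A1 by 381.8 and 466.8 times in αC, 188.3 and 195.0 in M1-FCP, 29.2 and 30.4 in FBG, and 17.6 and 20 in Mock.

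COL3A1 (chromosome 2, 188974373 to 189012746, plus strand), the chain of type III collagen, had 0 counts in all 8 libraries. Its neighbour COL5A2, on the minus strand, lies tail to tail with it, with 19151 bases between them. The files also list a copy of COL3A1 on a patch sequence of the genome, with 0 and 0 counts in αC, 0 and 0 in M1-FCP, 6 and 16 in FBG, and 7 and 6 in Mock. Reads that match both places are not counted without a multi-mapping option, so the 0 at the main locus does not show that the transcript was absent. A count of 0 allows up to 3 counts, or 0.135 to 0.198 CPM, for reads that map to the main locus alone, which is a limit on counting error only. The gene did not pass the filter on low counts and was not tested.

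The type IV genes COL4A1 and COL4A2 went the other way, though not every type IV chain did (see COL4A4 below). COL4A1 (chromosome 13, 110148963 to 110307157, minus strand), the α1 chain, had 224.6 and 219.7 TMM-scaled CPM in αC, 225.3 and 214.5 in M1-FCP, 158.7 and 160.4 in FBG, and 129.8 and 137.9 in Mock. All 4 αC and M1-FCP libraries were above the FBG libraries, which were above Mock, and αC and M1-FCP overlapped. COL4A1 rose by 0.73 ± 0.0305 in αC (1.66-fold, edgeR adjusted p = 4.76e-15), by 0.72 ± 0.0306 in M1-FCP (1.64-fold, 7.53e-15) and by 0.25 ± 0.0327 in FBG (1.19-fold, 1.21e-06), each against Mock.

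COL4A2 (chromosome 13, 110307284 to 110513209, plus strand), the α2 chain, had 418.8 and 418.0 TMM-scaled CPM in αC, 444.9 and 437.6 in M1-FCP, 364.3 and 359.7 in FBG, and 339.3 and 329.3 in Mock. Here M1-FCP was the highest group, and no 2 groups overlapped. COL4A2 rose by 0.32 ± 0.0191 in αC (1.25-fold, edgeR adjusted p = 5.45e-13), by 0.40 ± 0.0191 in M1-FCP (1.32-fold, 1.09e-14) and by 0.11 ± 0.0203 in FBG (1.08-fold, 5.13e-05). Although the genes share a promoter, the fold change of COL4A1 was above that of COL4A2 in each of the 3 comparisons, a difference between genes that was not itself tested. Per length, COL4A2 exceeded COL4A1 by 2.15 and 2.2 times in αC, 2.28 and 2.36 in M1-FCP, 2.65 and 2.59 in FBG, and 3.02 and 2.76 in Mock. The ratio was lowest in αC and highest in Mock with no overlap, which is a description without a test. COL4A2 shares 81 exon bases with an antisense gene, COL4A2-AS1, and reads there cannot be assigned to a strand.

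Of the type VI collagen genes, COL6A1 was slightly higher in the treated groups and COL6A2 was lower at a low level. COL6A1 (chromosome 21, 45981770 to 46005048, plus strand) had 148.9 and 143.5 TMM-scaled CPM in αC, 145.5 and 143.1 in M1-FCP, 141.3 and 139.1 in FBG, and 132.1 and 134.1 in Mock. Every treated library was above the Mock libraries, but by a small step. COL6A1 rose by 0.14 ± 0.0291 in αC (1.1-fold, edgeR adjusted p = 0.000252) and by 0.12 ± 0.0292 in M1-FCP (1.08-fold, 0.00114). In FBG the rise of 0.07 ± 0.032 (edgeR adjusted p = 0.046) was lost in 8 of 17 alternatives, among them leaving out either FBG library (log2 0.064 and 0.083) or either Mock library (0.059 and 0.082). With DESeq2 the M1-FCP rise missed the threshold (adjusted p = 0.0537).

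COL6A2 (chromosome 21, 46098112 to 46132848, plus strand) was 1 of the low genes, with 2.5 and 3.38 TMM-scaled CPM in αC, 2.66 and 2.05 in M1-FCP, 2.56 and 2.76 in FBG, and 4.07 and 3.86 in Mock. Mock was the highest group and did not overlap the others, which overlapped each other. COL6A2 fell by 0.75 ± 0.232 in M1-FCP (edgeR adjusted p = 0.00622), a call lost without M1-FCP replicate 2 (log2 -0.57, 0.0994), with DESeq2 (-0.77, 0.0961) and with GC content and length trends removed (-0.47, 0.0587). It fell by 0.57 ± 0.236 in FBG (edgeR adjusted p = 0.0476), a call kept in 3 of 16 alternatives and lost whichever of the 8 libraries was left out (log2 -0.63 to -0.52). In αC its log2 fold change of -0.43 ± 0.229 (95% interval -0.88 to 0.02, edgeR adjusted p = 0.0932) was not called. Per length, COL6A1 was 61.7 and 43.8 times COL6A2 in αC, 56.4 and 72.1 in M1-FCP, 57.0 and 52.0 in FBG, and 33.6 and 35.9 in Mock.

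COL12A1 (chromosome 6, 75084326 to 75206053, minus strand), a collagen with interrupted triple helices that sits on fibril surfaces, set αC and M1-FCP apart. It had 160.6 and 155.6 TMM-scaled CPM in αC, 122.9 and 125.0 in M1-FCP, 166.2 and 165.3 in FBG, and 131.6 and 131.5 in Mock. The αC and FBG libraries were high and the M1-FCP and Mock libraries low. COL12A1 rose by 0.35 ± 0.0271 in αC against M1-FCP (1.28-fold, edgeR adjusted p = 5.47e-09), with the fold change between 0.33 and 0.38 in all 17 alternatives. It rose by 0.27 ± 0.0284 in αC (1.2-fold, edgeR adjusted p = 1.5e-08) and by 0.33 ± 0.0308 in FBG (1.26-fold, 1.65e-09) against Mock, but the αC rise shrank to 0.05 (adjusted p = 0.102) when trends with GC content and length were removed. The small fall of 0.09 ± 0.0299 in M1-FCP against Mock (edgeR adjusted p = 0.0104) turned into a rise of 0.14 (0.000235) with library size as the only scaling, and without M1-FCP replicate 1 it was not called (log2 -0.07, 0.0873). Its direction in that comparison therefore depends on the scaling.

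**Figure D2:**
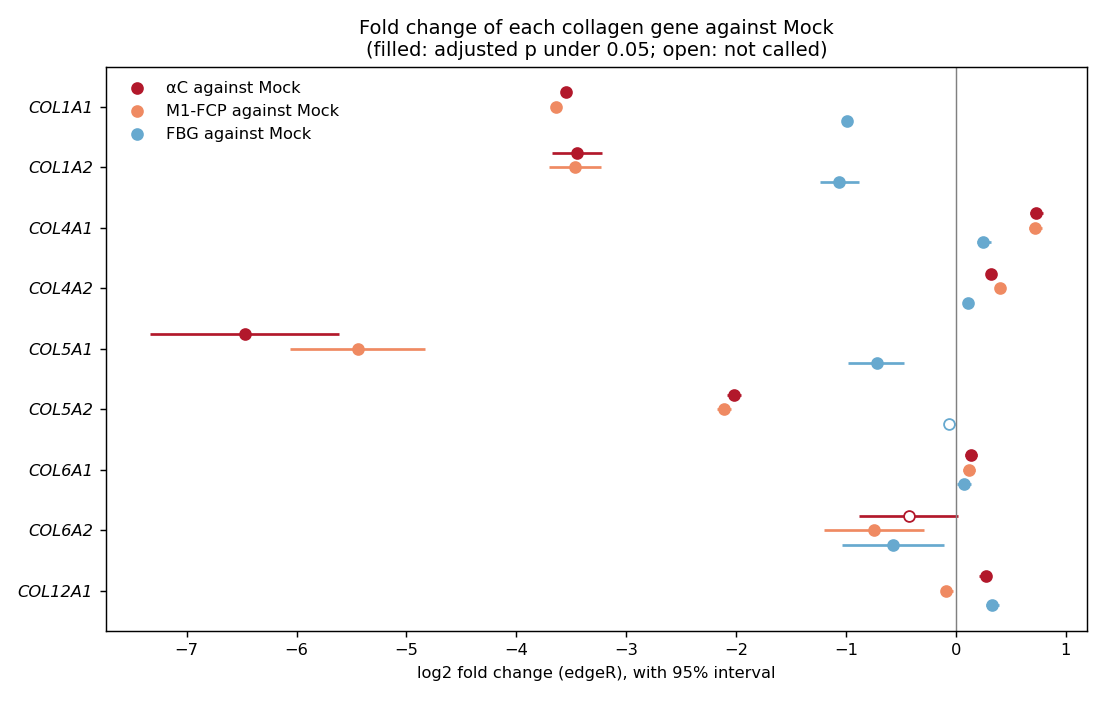
Log2 fold change (horizontal axis) of the 9 tested collagen genes (vertical axis) in αC, M1-FCP and FBG against Mock, from edgeR; bars are 95% intervals from the larger of the fitted and counting errors, filled points passed the threshold and open points did not. COL5A1 lies furthest left, at -6.47 in αC and -5.44 in M1-FCP, and COL4A1 furthest right, at 0.73 and 0.72.

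Most tested genes passed the threshold in most comparisons, so the counts of collagen genes are given beside that background. All but COL3A1 of the 10 collagen genes passed the filter on low counts, which leaves 9. In αC against Mock 4 rose and 4 fell, where 38.0% and 36.7% of the 16307 tested genes rose and fell. In M1-FCP against Mock 3 rose and 6 fell, beside 37.3% and 36.1% of all genes. In FBG against Mock 4 rose and 4 fell, beside 24.2% and 26.3%. The median log2 fold change of the 9 genes was -0.43 in αC, -0.75 in M1-FCP and -0.06 in FBG, against 0.06, 0.06 and 0.02 for all genes, and the median absolute value was 0.73, 0.75 and 0.33, against 0.66, 0.65 and 0.33. With library size as the only scaling, the median of all genes became 0.29, 0.28 and 0.13, and M1-FCP against Mock gave 4 risen and 5 fallen collagen genes.

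The αC and M1-FCP libraries were also set against the FBG libraries. In αC against FBG 2 genes rose and 5 fell, where 33.8% and 34.5% of all genes rose and fell. Those that fell were COL1A1, COL1A2, COL5A1, COL5A2 and COL12A1, and those that rose were COL4A1 and COL4A2. With library size as the only scaling this became 3 and 4, since COL6A1 was then called higher (log2 0.18) and COL12A1 was not called. COL6A1 was also called higher there with RLE factors, no filter, the 5 CPM filter and without αC replicate 2 (log2 0.074 to 0.141). In M1-FCP against FBG the same 7 genes passed in the same directions, 2 risen and 5 fallen, beside 32.6% and 34.2% of all genes, and both comparisons share the FBG libraries. COL12A1 was lower by -0.42 ± 0.0281 in M1-FCP than in FBG (edgeR adjusted p = 8.65e-12). In αC against FBG its difference was -0.07 ± 0.0275 (edgeR adjusted p = 0.0339), a call lost in 8 of 17 alternatives. It was lost without αC replicate 2 (log2 -0.043, 0.283), without FBG replicate 1 (-0.075, 0.0638), with RLE factors (-0.046, 0.143), with no filter (-0.055, 0.122), with only the 4 libraries compared (-0.063, 0.0552) and with DESeq2 (-0.055, 0.305). The sign turned with library size as the only scaling (0.05) and with the 5 CPM filter (0.01).

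The αC and M1-FCP libraries were compared at equal dose and time. In αC against M1-FCP 2 genes rose and 1 fell, where 4.57% and 4.45% of all genes rose and fell. Beside COL12A1, COL1A1 was higher in αC by 0.09 ± 0.0224 (edgeR adjusted p = 0.00388) and COL4A2 was lower by -0.08 ± 0.0177 (0.00611). The COL1A1 call was lost without αC replicate 1 (log2 0.081, 0.0527) and without FBG replicate 1 or 2 (0.086, 0.279 and 0.093, 0.265), as well as with the 5 CPM filter, the replicate block and GC content and length trends removed (0.103, 0.094 and 0.047), and the COL4A2 call without αC replicate 2 (-0.075, 0.0683) and without M1-FCP replicate 1 (-0.066, 0.108). For the genes not called, the 95% intervals of the log2 difference were -0.04 to 0.07 for COL4A1, -0.04 to 0.07 for COL6A1, 0.02 to 0.16 for COL5A2, -0.3 to 0.33 for COL1A2, -0.13 to 0.77 for COL6A2 and -2.07 to 0.02 for COL5A1, which leaves room for sizeable differences in the genes of low counts. COL5A2 was called higher in αC with GC content and length trends removed (log2 0.12, edgeR adjusted p = 0.0164).

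The order of transcript levels per length differed between the groups. In TPM, which are transcript counts scaled by length and depth, the αC order was COL4A2 (217.1 and 217.3), COL6A1 (118.3 and 114.4), COL1A1 (104.9 and 103.7), COL4A1 (100.8 and 98.8), COL12A1 (42.3 and 41.1) and COL5A2 (30.2 and 30.9), followed by COL1A2 (2.37 and 2.32), COL6A2 (1.92 and 2.61) and COL5A1 (0.0791 and 0.0661). COL1A2 and COL6A2 overlapped in αC. M1-FCP had the same order except that COL4A1 (99.7 and 95.2) and COL1A1 (96.2 and 96.6) changed places, and these overlapped. In FBG COL1A1 led with 518.8 and 520.4 TPM, ahead of COL4A2 (159.6 and 157.5), COL5A2 (100.9 and 99.7) and COL6A1 (94.9 and 93.4). Mock had the same order as FBG, with COL1A1 at 905.9 and 918.0 TPM, 7.03 times COL4A2 (131.6 and 128.0). No neighbours in the order overlapped in FBG or Mock. COL3A1 was listed at 0 throughout.

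The 10 genes together made up 618.0 and 611.2 TPM in αC, 601.6 and 594.1 in M1-FCP, 986.2 and 984.4 in FBG, and 1305 and 1317 in Mock. COL1A1 took 17.0% of this in both αC libraries, 16.0% and 16.3% in M1-FCP, 52.6% and 52.9% in FBG, and 69.4% and 69.7% in Mock. The type IV chains took 51.4% and 51.7% in αC, 54.4% and 53.8% in M1-FCP, 22.3% and 22.2% in FBG, and 13.4% and 13.2% in Mock. In TPM the sum without COL1A1 ran the other way, at 513.1 and 507.5 TPM in αC, 505.4 and 497.5 in M1-FCP, 467.5 and 464.1 in FBG, and 398.9 and 399.2 in Mock. TPM carry no TMM scaling, unlike the fold changes above. The TMM factors were 1.064 in both αC libraries and 0.9064 and 0.9069 in Mock. This order of the sums holds in TPM only. With TMM-scaled levels per length, αC and M1-FCP did not lie above FBG and Mock. Among these 10 genes, type IV chains thus held the larger part in αC and M1-FCP, and COL1A1 in FBG and Mock. The shares would be smaller over all collagen genes, since COL8A1 alone averaged 295.8 TPM in αC, 274.1 in M1-FCP, 593.3 in FBG and 481.4 in Mock.

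**Figure D3:**
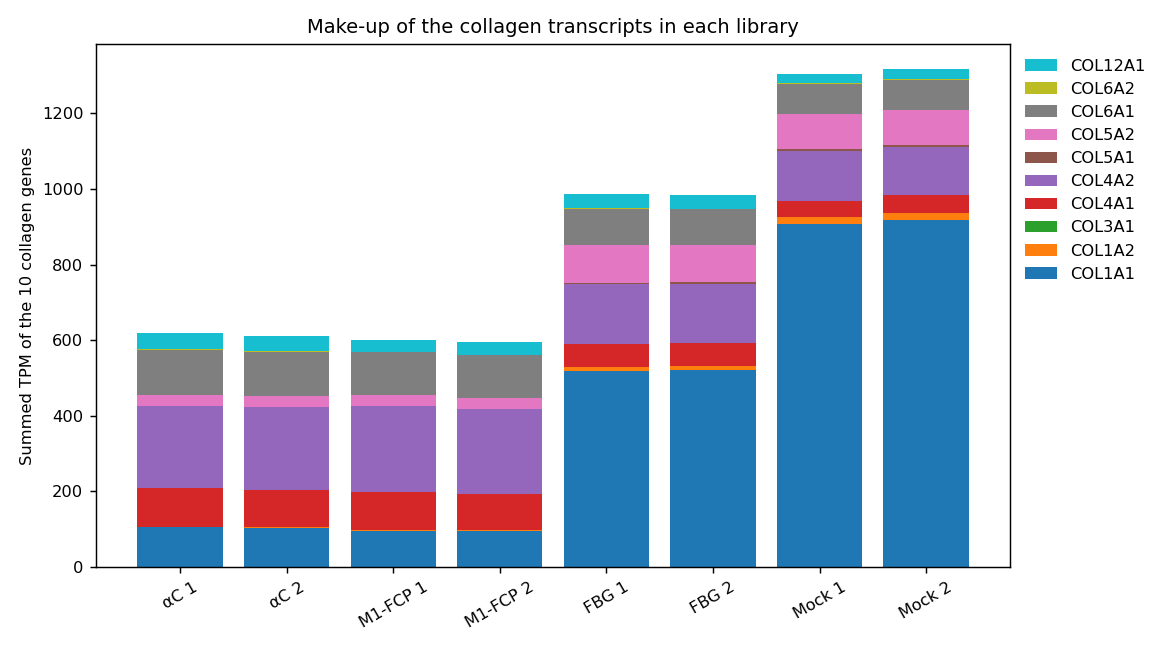
Summed TPM (vertical axis) of the 10 collagen genes in each of the 8 libraries (horizontal axis), stacked by gene. COL1A1 fills 69.4% and 69.7% of the Mock bars and 17.0% of the αC bars.

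The libraries also differed along sequence and position, which touches these genes. Across 13569 tested genes with a known GC content, the log2 fold change went down with GC content (Spearman rho -0.244 in αC, -0.282 in M1-FCP and -0.425 in FBG, each against Mock). These are correlations across genes, which are not independent replicates. COL1A1 has 61.0% GC, COL5A1 59.9%, COL6A1 63.6% and COL6A2 65.3%, against a median of 48.9% of all tested genes. With those trends removed COL1A1 still fell, with log2 fold changes of -3.37 in αC, -3.41 in M1-FCP and -0.73 in FBG. COL6A2 shrank to -0.47 in M1-FCP and -0.3 in FBG, and neither was then called (edgeR adjusted p = 0.0587 and 0.295). COL5A1 lies on chromosome 9, whose 705 tested genes had a median log2 fold change of 0.59 in αC and 0.58 in M1-FCP against Mock, so the gene fell where its chromosome was higher. Chromosome 6, with COL12A1, had medians of 0.48 in αC and in M1-FCP and 0.12 in FBG.

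Genes with the most similar profile were found by the root mean square difference of centred log2 CPM over the 8 libraries, among 13599 genes with at least 1 TPM. The nearest to COL1A1 was COL1A2 (0.124), followed by IGFBP4 (0.128) and DCHS1 (0.159). The nearest to COL4A1 were ZFX (0.0355), GNAQ (0.0384) and NR2C1 (0.0386), and COL4A2 was not among them, at 0.162. The nearest to COL5A1 were TUBB4A (0.254), RGS4 (0.33) and ABI3BP (0.346). Since these points share libraries and depth, likeness is a description only.

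Other collagen chains moved in both directions. Of 34 further collagen genes 18 were tested, and 8 rose and 6 fell in αC, 8 rose and 8 fell in M1-FCP, and 7 rose and 5 fell in FBG, each against Mock. Their median log2 fold changes were 0.0, -0.18 and 0.16, against 0.06, 0.06 and 0.02 for all genes. Of all tested genes 38.0% rose and 36.7% fell in αC, 37.3% and 36.1% in M1-FCP, and 24.2% and 26.3% in FBG, and these shares are also the background of the gene lists below. In FBG the count of risen chains dropped to 3 without Mock replicate 1 and 4 without Mock replicate 2, and that of fallen chains to 3 without FBG replicate 2 or Mock replicate 2. COL17A1, a transmembrane collagen of hemidesmosomes in basal epithelial cells, averaged 71.3 TMM-scaled CPM in αC and 71.9 in M1-FCP, against 1.01 in FBG and 0.4 in Mock. It rose by 7.46 in αC, 7.47 in M1-FCP and 1.32 in FBG on the log2 scale (edgeR adjusted p = 7.78e-21, 8.35e-21 and 0.0102). The FBG call was lost without FBG replicate 1 (0.88, adjusted p = 0.25) and without Mock replicate 1 (1.1, 0.101). COL7A1, the anchoring fibril collagen that ties basement membrane to the stroma, averaged 418.4, 366.7, 33.3 and 29.8 TMM-scaled CPM in αC, M1-FCP, FBG and Mock, and rose by 3.81 in αC and 3.62 in M1-FCP (edgeR adjusted p = 1.81e-28 and 6.69e-28). The high chains of αC and M1-FCP thus included basal epithelial ones, in the same libraries as the epithelial markers above.

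COL16A1, a fibril-associated collagen, rose by 4.94 in αC and 4.77 in M1-FCP (edgeR adjusted p = 1.02e-07 and 1.3e-07). COL21A1 had 59 counts in αC, 41 in M1-FCP, 10 in FBG and 2 in Mock in all, so that the ratio to Mock per depth was 21.9 in αC, with a 95% exact counting interval of 5.81 to 185.5. COL8A1, a short-chain network collagen, averaged 493.0, 463.3, 1172 and 1073 TMM-scaled CPM in αC, M1-FCP, FBG and Mock. It fell in αC (log2 -1.12) and M1-FCP (-1.21) and rose by 0.13 in FBG (edgeR adjusted p = 6.78e-25, 2.4e-25 and 8.7e-08). COL4A4, a chain of a specialised type IV network, fell in all 3 (log2 -2.36 in αC, -2.42 in M1-FCP and -0.34 in FBG), opposite to COL4A1 and COL4A2. COL6A3, the type VI chain that assembles with those of COL6A1 and COL6A2, fell in αC (log2 -1.98) and M1-FCP (-1.87) and had a log2 fold change of 0.57 in FBG (edgeR adjusted p = 0.0572). COL14A1, a fibril-associated chain of few counts, fell in αC and M1-FCP, with log2 fold changes of -2.94 and -3.45 (edgeR adjusted p = 1.91e-05 and 5.78e-06).

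**Figure D4:**
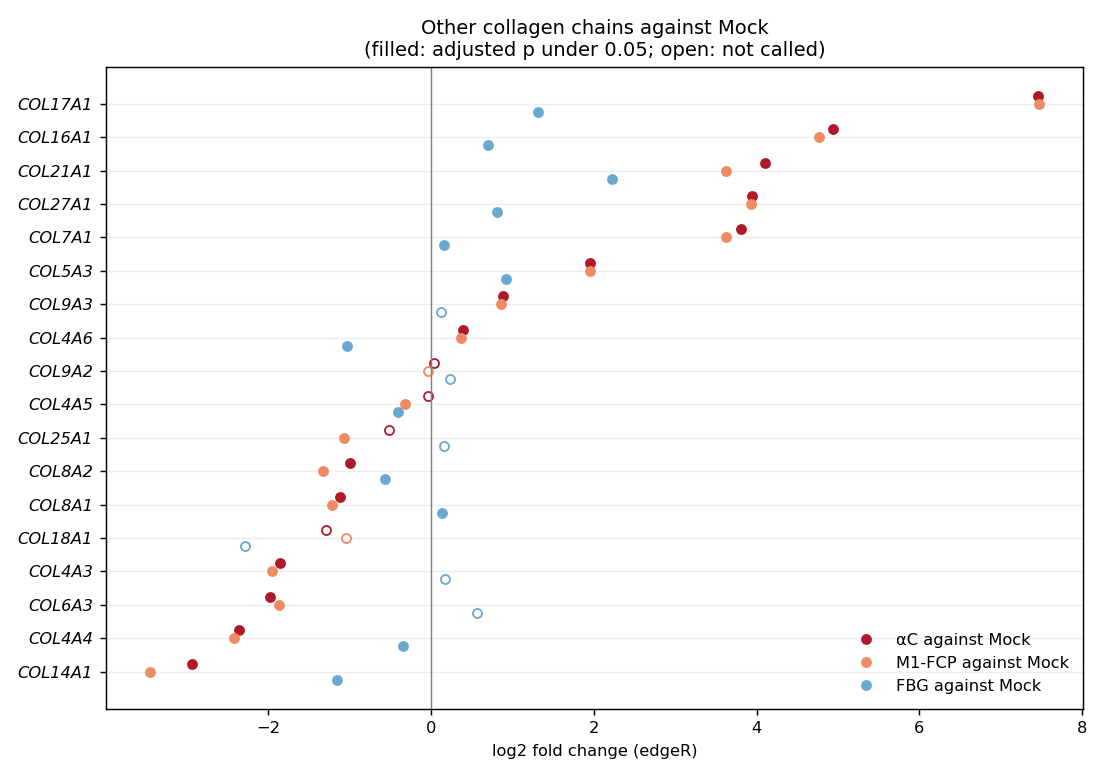
Log2 fold change (horizontal axis) of 18 other collagen chains in αC, M1-FCP and FBG against Mock, from edgeR, ordered by αC; filled points passed the threshold and open points did not. COL17A1 is highest at 7.46 in αC and COL14A1 lowest at -2.94.

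Enzymes and chaperones build and fold collagen in the endoplasmic reticulum. Of 24 such genes, all tested, 3 rose and 20 fell in αC, 4 rose and 20 fell in M1-FCP, and 4 rose and 16 fell in FBG, with median log2 fold changes of -0.92, -0.95 and -0.31. Of all tested genes, 36.7%, 36.1% and 26.3% fell in these comparisons, and the medians were 0.06, 0.06 and 0.02. SERPINH1, the collagen chaperone HSP47, averaged 317.6, 314.5, 615.5 and 802.0 TMM-scaled CPM in αC, M1-FCP, FBG and Mock. Its log2 fold changes were -1.34, -1.35 and -0.38 in αC, M1-FCP and FBG against Mock, called in each (edgeR adjusted p = 2.94e-25, 2.95e-25 and 9.21e-15). P4HB, a subunit of prolyl hydroxylase, also fell in all 3 (log2 -1.2, -1.17 and -0.2 in the same order), as did FKBP10, a prolyl isomerase (-1.06, -1.06 and -0.29). With trends of GC content and length removed, the FBG value of P4HB turned to a rise of 0.07 and that of FKBP10 was no longer called (-0.02). Several of these genes also serve other secreted proteins.

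Of the 14 genes that process and cross-link procollagen, 12 were tested: none rose and 9 fell in αC, 1 rose and 9 fell in M1-FCP, and 4 rose and 2 fell in FBG, with medians of -1.49, -1.54 and 0.15. Over all tested genes, 36.7% fell in αC, 36.1% in M1-FCP and 26.3% in FBG. LOX, lysyl oxidase, fell in αC (log2 -1.4) and M1-FCP (-1.51) and had -0.08 in FBG (edgeR adjusted p = 0.221). LOXL2, of the same enzyme family, fell in αC, M1-FCP and FBG (-1.67, -1.71 and -1.01), and TGM2, a transglutaminase, fell in αC and M1-FCP (-1.59 and -1.56) but rose by 0.56 in FBG (edgeR adjusted p = 2.33e-18). The count of risen genes became 1 in αC without Mock replicate 1, and 0 in M1-FCP without M1-FCP replicate 2 or Mock replicate 2. BMP1, the procollagen C-proteinase, rose by 0.36 in FBG, and its direction in αC turned with the scaling (log2 -0.15, or 0.08 with library size as the only scaling).

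Of 11 tested fibril-associated matrix proteins of 16, 4 rose and 7 fell in αC and in M1-FCP, and 2 rose and 8 fell in FBG, with medians of -1.13, -1.02 and -0.37. BGN, the proteoglycan biglycan, fell in αC, M1-FCP and FBG (log2 -2.89, -2.97 and -0.51), and SPARC, a collagen-binding protein, fell in αC and M1-FCP (-1.13 and -1.02). TGFBI, an adhesion protein that binds collagen, rose in αC and M1-FCP (1.28 and 1.37) and fell in FBG (-0.3). FN1, the highest gene of this list, hardly moved, with 0.02 in αC, 0.15 in M1-FCP and -0.08 in FBG. The FN1 sign turned in αC with DESeq2 (-0.0072) and in FBG with library size as the only scaling (0.03). THBS1 rose slightly in αC, M1-FCP and FBG (0.13, 0.13 and 0.17). In FBG the count of risen genes was 1 without Mock replicate 1.

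Partners of type IV collagen in the basement membrane were mixed. Of 15 genes, all tested, 6 rose and 9 fell in αC and in M1-FCP, and 4 rose and 7 fell in FBG, with medians of -0.36, -0.37 and -0.12. LAMA5, a laminin chain, rose by 0.62 in αC and 0.48 in M1-FCP and fell by 0.47 in FBG (edgeR adjusted p = 3.2e-20, 5.03e-18 and 3.68e-16). PXDN, peroxidasin, which cross-links type IV collagen, fell in αC and M1-FCP (log2 -0.47 and -0.5). Of 8 tested collagen receptors of 11, 2 rose and 5 fell in αC and in M1-FCP, and 5 rose and 2 fell in FBG, with medians of -0.69, -0.63 and 0.22. ITGA2, a collagen-binding integrin subunit of epithelial cells, rose in αC and M1-FCP (log2 3.55 and 3.47, edgeR adjusted p = 1.07e-20 and 1.81e-20). ITGA11, one of mesenchymal cells, fell in αC and M1-FCP (-3.64 and -3.75) and rose by 0.39 in FBG. ITGA1, a further such subunit, rose in αC, M1-FCP and FBG (0.85, 0.7 and 1.06). With GC content and length trends removed, ITGA1 was not called in αC (0.08) or M1-FCP (-0.06).

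Of 11 tested collagen-degrading proteases and inhibitors of 15, 4 rose and 6 fell in αC and in M1-FCP, and 2 rose and 4 fell in FBG, with medians of -0.36, -0.37 and -0.12. MMP14, a membrane collagenase, rose in αC and M1-FCP (log2 1.16 and 1.12), while its FBG value of -0.02 (edgeR adjusted p = 0.637) was not called. In FBG it was called risen with library size as the only scaling (0.09, edgeR adjusted p = 0.0143). The same held with GC content and length trends removed (0.23, 4.29e-07). TIMP1, an inhibitor of such proteases, fell in αC, M1-FCP and FBG (-1.77, -1.81 and -1.05), and TIMP2 fell in αC and M1-FCP (-1.4 and -1.41). In FBG the count of risen genes was 1 without FBG replicate 1 and without either Mock library.

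Of 18 tested regulators of collagen genes of 19, 8 rose and 6 fell in αC and in M1-FCP, and 8 rose and 5 fell in FBG, with medians of 0.12, -0.02 and 0.17. These counts stand beside 38.0% of all tested genes risen and 36.7% fallen in αC, 37.3% and 36.1% in M1-FCP, and 24.2% and 26.3% in FBG. With library size as the only scaling, 13 rose in αC. TGFB1, a growth factor that raises type I collagen, fell in αC, M1-FCP and FBG (log2 -1.19, -1.24 and -0.65). SMAD3, which carries its signal, rose by 1.01 in αC and 0.31 in M1-FCP and fell by 0.74 in FBG, and was higher by 0.71 in αC than in M1-FCP (edgeR adjusted p = 9.52e-14).

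**Figure D5:**
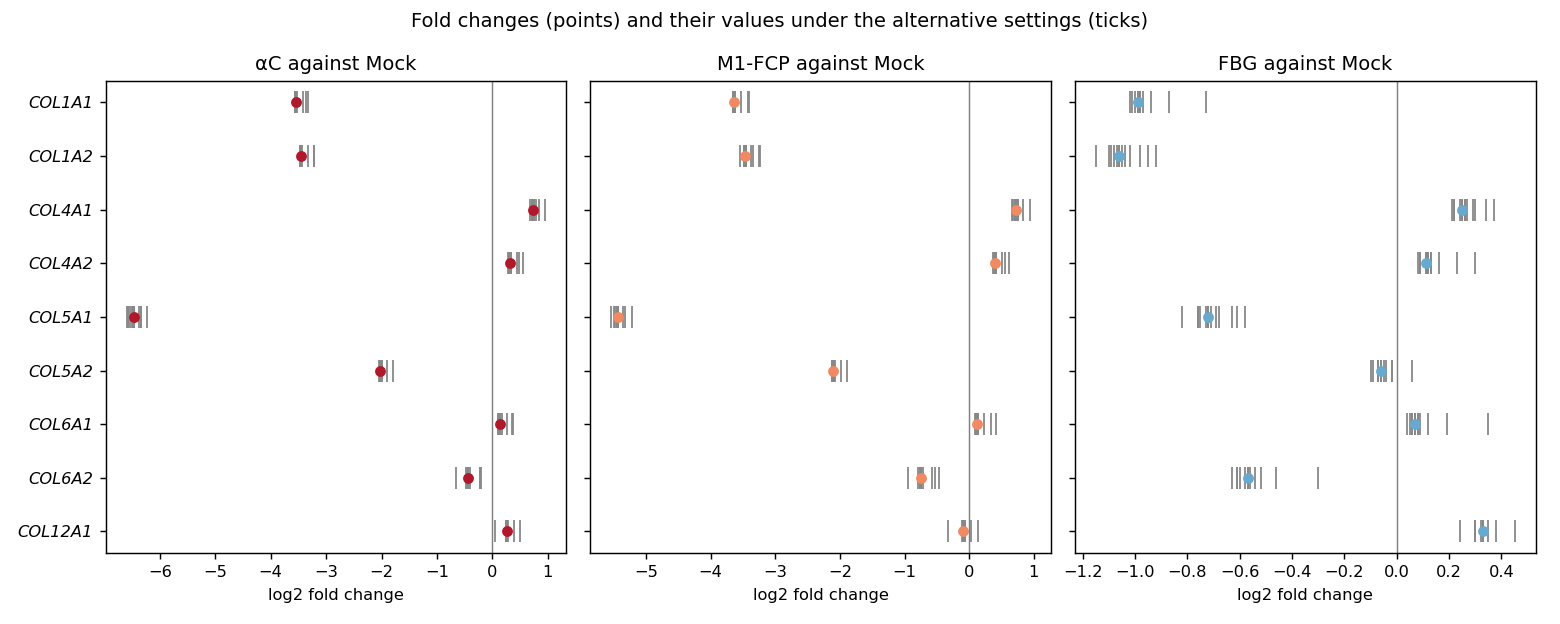
Log2 fold change (horizontal axis, scaled separately in each panel) of the 9 tested collagen genes in αC, M1-FCP and FBG against Mock; points are the reported values and ticks the values under each alternative setting. The ticks cross 0 for COL12A1 in M1-FCP and for COL5A2 in FBG.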

How the data were processed

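RNA from BEAS-2B cells was sequenced in 8 libraries, 2 each of αC, M1-FCP, FBG and Mock. The authors deposited 1 raw count of read pairs for each gene. Per the file headers, featureCounts 1.6.0 summed exons by gene, and neither a strand nor a multi-mapping option was set. The submitters' processing notes name Trimmomatic 0.39, HISAT2 2.2.1, SAMtools 1.9, featureCounts 1.6.2 and the build GRCh38.p14. The file headers also give the exon length per gene, from which TPM were computed here.

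Counts were tested with edgeR 4.0.16 (robust quasi-likelihood, TMM, filterByExpr by group) in R 4.3.3. All 8 libraries entered 1 fit with 4 residual degrees of freedom and 16307 genes. Benjamini-Hochberg adjustment ran over all tested genes within each of 6 comparisons, and a gene was called at an adjusted p under 0.05. The standard error is the absolute fold change over the square root of the F statistic, and 95% intervals use it or the counting error, whichever is larger. Intervals and floors cover counting error where so named. The steps were tested on simulated data. Replicate pairs differed by more than counting noise (chi-square per gene 1.27 to 1.34) and were kept apart. Alternatives were DESeq2 1.42.0, other scalings and filters, removal of GC content and length trends, a replicate block, and leaving out each library.

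Other genes were named by level: up to 5 tested members of each list with the highest mean TPM, and of the collagen chains also the 3 with the largest change in each direction in αC against Mock. The 10 collagen genes and all lists were chosen with earlier results of these data known.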

Additional observations from a re-analysis of the deposited data

Results flagged for a closer look

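COL4A2-AS1, an antisense gene beside COL4A2 that entered no comparison, had 10 and 19 counts in αC and 7 and 15 in M1-FCP, against 2 and 1 in Mock. It is listed because these counts lie above the Mock level in data outside the main measurement. The gene shares 81 exon bases with COL4A2, and the counting did not use strand. Whether these reads come from the antisense transcript was not tested.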

How the results depend on the processing

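All 17 alternatives kept the direction and the call of the falls of COL1A1, COL1A2 and COL5A1 and of the rises of COL4A1 and COL4A2 against Mock in αC, M1-FCP and FBG, and of the falls of COL5A2 in αC and M1-FCP. Of the 12 counts of collagen genes risen or fallen, 1 left its range of 1.5 times under a setting that keeps all libraries: the genes risen in αC against M1-FCP numbered 1, not 2, with a filter of at least 5 CPM in 2 libraries and with the replicate block. Leaving out each library gave 1 to 2 risen and 0 to 1 fallen genes in that comparison. Equal replicate numbers did not deviate together (correlations -0.0749 to 0.0652), and the block fit ended 3 calls among the 54 fold changes tested, with 1 risen gene in αC against M1-FCP as said; no pairing is assumed. Signs turned with library size as the only scaling for COL12A1 in M1-FCP against Mock (0.14) and αC against FBG (0.05) and for COL5A2 in FBG against Mock (0.06), and with the 5 CPM filter for COL12A1 (0.03 and 0.01 in the same comparisons). In αC against M1-FCP, signs turned for COL6A1 with GC content and length trends removed (-0.05) and without αC replicate 1 (-0.01, highest 0.05 over the libraries left out), for COL1A2 without αC replicate 1 (-0.0041) and without M1-FCP replicate 2 (-0.07, highest 0.1), and for COL4A1 in the same cases (-0.0038 and -0.02, highest 0.05). COL6A2 turned in αC against FBG without αC replicate 2 (-0.09, highest 0.35) and in M1-FCP against FBG without M1-FCP replicate 2 (0.0039, lowest -0.37). Among the gene lists, counts moved by over 1.5 times in FBG for other collagen chains risen (4 with DESeq2, against 7 in the main analysis), receptors risen (3 with GC and length trends removed against 5), fibril-associated proteins risen (1 with DESeq2, with GC and length trends removed and with RLE factors against 2), proteases and inhibitors risen (1 with DESeq2, RLE factors or no filter and 4 with GC and length trends removed against 2) and fallen (2 with DESeq2, library size only, GC and length trends removed or the 4 libraries compared against 4), and regulators fallen (3 with library size only against 5). In αC they moved for synthesis genes risen (6 with library size only and 5 with GC and length trends removed against 3), processing genes risen (3, 2 and, with the 5 CPM filter, 1 against 0), receptors risen (1 with GC and length trends removed against 2), proteases and inhibitors risen (2 with the 5 CPM filter against 4) and regulators risen (13 with library size only against 8). In M1-FCP they moved for other collagen chains fallen (5 against 8) and proteases and inhibitors risen (2 against 4) with the 5 CPM filter, receptors risen (1 against 2) with GC and length trends removed, and processing genes risen (3 with those trends removed and 0 with DESeq2 against 1). The causes were not tested. Summing COL3A1 with its patch copy, chosen after seeing the data, changed no count. COL6A2 has no value under the 5 CPM filter.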
